A study of Mus musculus with 8 samples.

Results

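The genes described here are 9 very large linker, filamin and ferlin genes: plectin (Plec), microtubule-actin crosslinking factor 1 (Macf1), dystonin (Dst), filamin A (Flna), utrophin (Utrn), Ahnak, Ahnak2, dysferlin (Dysf) and myoferlin (Myof). They were chosen by name, from 35975 annotated genes, with earlier results of the comparison below known. Their differences between the fractions are therefore given as a description, without a test. All 9 passed the filter on low counts, as did 13343 genes in all. The libraries came from fibrosarcomas of syngeneic cells under the skin of wild-type C57BL/6 mice. Every library, of both fractions, therefore shares the same genotype and kind of tumor, and neither a treatment nor an age is part of the labels used here. The digested tumors were passed over magnetic columns, and RNA was sequenced in bulk from the iron positive eluate (4 libraries) and the iron negative flowthrough (4 libraries). The tags 3L, 3R, 4R and 5L occur once in each fraction. The series title calls the cells macrophages, but no antibody sort is named in the labels, and they do not say that the tags are separate animals.

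Plectin, MACF1 and dystonin are plakins, giant proteins that tie actin, microtubules and intermediate filaments to one another and to adhesion sites at the membrane. Filamin A crosslinks actin filaments, utrophin joins cortical actin to dystroglycan in the membrane, and the AHNAK proteins are scaffolds under the plasma membrane that bind annexin A2 with S100A10. Ferlins are membrane-anchored proteins with many calcium-binding C2 domains, and dysferlin is best known for the patching of torn membranes in muscle.

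Library totals ran from 19.04 to 24.31 M estimated counts. Levels are given as CPM, the counts of a gene relative to the library total after TMM scaling (trimmed mean of M values), and fold changes as log2 of iron positive over iron negative with the standard error (SE) of the fit. Of the 13343 genes, 1133 were called higher in the iron positive fraction (8.49%) and 695 lower (5.21%) at an adjusted p under 0.05 in edgeR's quasi-likelihood test. With the tag as a replicate block, 1705 were higher (12.8%) and 1253 lower (9.39%). Scaled by library totals, 1172 were higher and 362 lower, and scaled to the macrophage markers 1395 and 14. No gene was called without iron negative library 3L, 3R or 4R, although 3556, 3597 and 3704 genes still had an unadjusted p under 0.05 in those fits of edgeR. All 16 macrophage markers were measured in both fractions, led by Lyz2 at 9951 and 10710 CPM. Macrophage markers summed to between 32120 and 35410 CPM in the iron negative libraries and to between 24000 and 32490 CPM in the iron positive ones, and 6 of the 16 were lower (11 with the block, 0 on the macrophage scale). That scale sets the sum of these same 16 markers equal between libraries, so its 0 is largely given by the scaling and says nothing about their level. All 13 endothelial markers were higher in the iron positive fraction, as were 6 of 9 tested pericyte and smooth muscle markers (8 with the block), 6 of 11 fibroblast and fibrosarcoma markers (10 with the block), 7 of 11 skeletal muscle markers and 2 of 5 neutrophil markers (3 with the block). The spread behind each p-value is that between libraries, which may be technical, and in bulk RNA fewer cells of a type and less RNA per cell cannot be told apart.

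Among the 9 genes, Plec, Ahnak, Ahnak2, Dysf and Utrn were higher in the iron positive fraction, and Myof, Macf1, Dst and Flna differed little. The median log2 fold change of the 9 was 0.96, against -0.01 over all genes tested. In the fit, 5 of 9 were called higher, beside 8.49% of all genes, and 0 of 9 lower, beside 5.21%. The same 5 were called with the tag as a block. Without iron negative 5L only Plec and Ahnak were called, and without iron positive 4R only Plec, Ahnak and Dysf. Because the genes were picked with this contrast known, nothing is read from these counts, nor from a lack of overlap between fractions below. How many of all genes lack such overlap is not given here. Scaling the libraries to the macrophage markers in place of all genes moved the median over all tested genes up by 0.202 (log2), and all 9 log2 fold changes were above 0 on both scales. Summed over the 9 genes, the level was 1474, 1526, 1555 and 1515 CPM in iron negative libraries 3L, 3R, 4R and 5L, and 1761, 2024, 2004 and 1897 CPM in the iron positive ones. Flna, the most abundant of the 9, made up the largest part of these sums in both fractions.

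**Figure D1:**
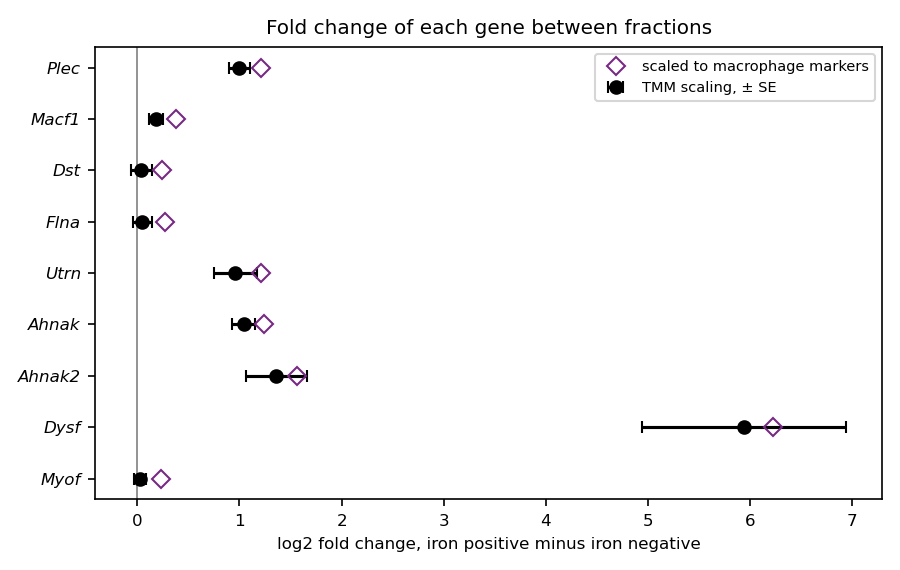
Log2 fold change of each gene, iron positive minus iron negative, with its SE as bars (filled points, 4 libraries per fraction), and the same on the macrophage scale (open diamonds). Dysf lies at 5.94, Plec, Ahnak, Ahnak2 and Utrn lie between 0.96 and 1.36, and Myof, Macf1, Dst and Flna lie between 0.03 and 0.18.

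Of the plakins, plectin, which anchors intermediate filaments to other structures of the cell, differed between the fractions. Plec (ENSMUSG00000022565, chr15:76170974-76232574 of GRCm38, minus strand) stood at 120.2, 127.3, 133.2 and 137.5 CPM in iron negative libraries 3L, 3R, 4R and 5L. In the iron positive libraries of the same tags it stood at 239.8, 263.6, 308.4 and 224.1 CPM. The fractions did not overlap, and the lowest iron positive library was 5L. The means were 129.6 ± 7.47 and 259.0 ± 36.7 CPM (SD, n = 4 each), a difference of 2.0-fold with a log2 fold change of 1.0 ± 0.10 (SE). Within each tag the iron positive library was 1.99 (3L), 2.07 (3R), 2.32 (4R) and 1.63 (5L) times the iron negative one. Parp10 overlaps Plec on the same strand, and its mean was 1118 estimated counts in iron negative and 1123 in iron positive libraries.

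The other plakins showed no such difference. Macf1 (ENSMUSG00000028649, chr4:123349633-123684360, minus strand), which guides microtubules along actin fibers, had 198.9, 213.0, 233.6 and 198.7 CPM in the iron negative libraries and 233.4, 240.9, 223.5 and 259.2 CPM in the iron positive ones. The fractions overlapped, since the iron positive library 4R lay below the iron negative library 4R, and the log2 fold change was 0.18 ± 0.07 (SE). Dst (ENSMUSG00000026131, chr1:33908225-34308661, plus strand), whose isoforms serve nerve, muscle and skin, had 144.3, 156.8, 184.6 and 164.1 CPM in the iron negative and 142.0, 171.9, 164.0 and 190.6 CPM in the iron positive libraries. Here tags 3L and 4R were lower and tags 3R and 5L higher in the iron positive fraction, with a log2 fold change of 0.04 ± 0.10 (SE). The ratio of Plec to Macf1 CPM was between 0.570 and 0.692 in the iron negative libraries and 1.03, 1.09, 1.38 and 0.865 in iron positive 3L, 3R, 4R and 5L.

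Filamin A and utrophin also parted. Flna (ENSMUSG00000031328, chrX:74223461-74249820, minus strand) had 632.4, 658.2, 623.1 and 637.7 CPM in the iron negative libraries and 575.7, 749.4, 644.5 and 671.1 CPM in the iron positive ones. The iron positive libraries held both the lowest (3L) and the highest (3R) value, and the log2 fold change was 0.05 ± 0.09 (SE). Utrn (ENSMUSG00000019820, chr10:12382188-12869365, minus strand), the paralog of dystrophin that is found in many tissues, had 23.0, 27.1, 28.9 and 23.5 CPM in the iron negative libraries. It had 35.6, 72.5, 51.9 and 39.7 CPM in the iron positive ones, where 3R and 4R were highest. The fractions did not overlap, with means of 25.6 ± 2.83 and 49.9 ± 16.6 CPM (SD, n = 4 each) and a log2 fold change of 0.96 ± 0.21 (SE). Within tags the ratio ran from 1.55 (3L) to 2.68 (3R).

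Both AHNAK genes were higher in every iron positive library than in any iron negative one. Ahnak (ENSMUSG00000069833, chr19:8989284-9076914, plus strand) had 154.3, 120.8, 148.0 and 154.7 CPM in the iron negative libraries and 314.5, 254.6, 334.8 and 287.6 CPM in the iron positive ones. Tag 3R was lowest in both fractions, and the ratio within tags stayed between 1.86 (5L) and 2.26 (4R). The means were 144.5 ± 16.1 and 297.8 ± 34.7 CPM (SD, n = 4 each), with a log2 fold change of 1.04 ± 0.11 (SE). Ahnak2 (ENSMUSG00000072812, chr12:112772194-112802657, minus strand), a related scaffold, was far less abundant, with 4.24, 10.3, 10.3 and 10.9 CPM in the iron negative and 18.99, 24.9, 30.4 and 17.1 CPM in the iron positive libraries. Iron negative 3L stood apart from the other iron negative libraries, and iron positive 4R was highest. The log2 fold change of Ahnak2 was 1.36 ± 0.30 (SE), and its ratio within tags spread from 1.57 (5L) to 4.48 (3L). As their fractions did not overlap, Ahnak, Plec and Ahnak2, like Utrn and Dysf, were higher in the iron positive library in 4 of 4 tags.

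**Figure D2:**
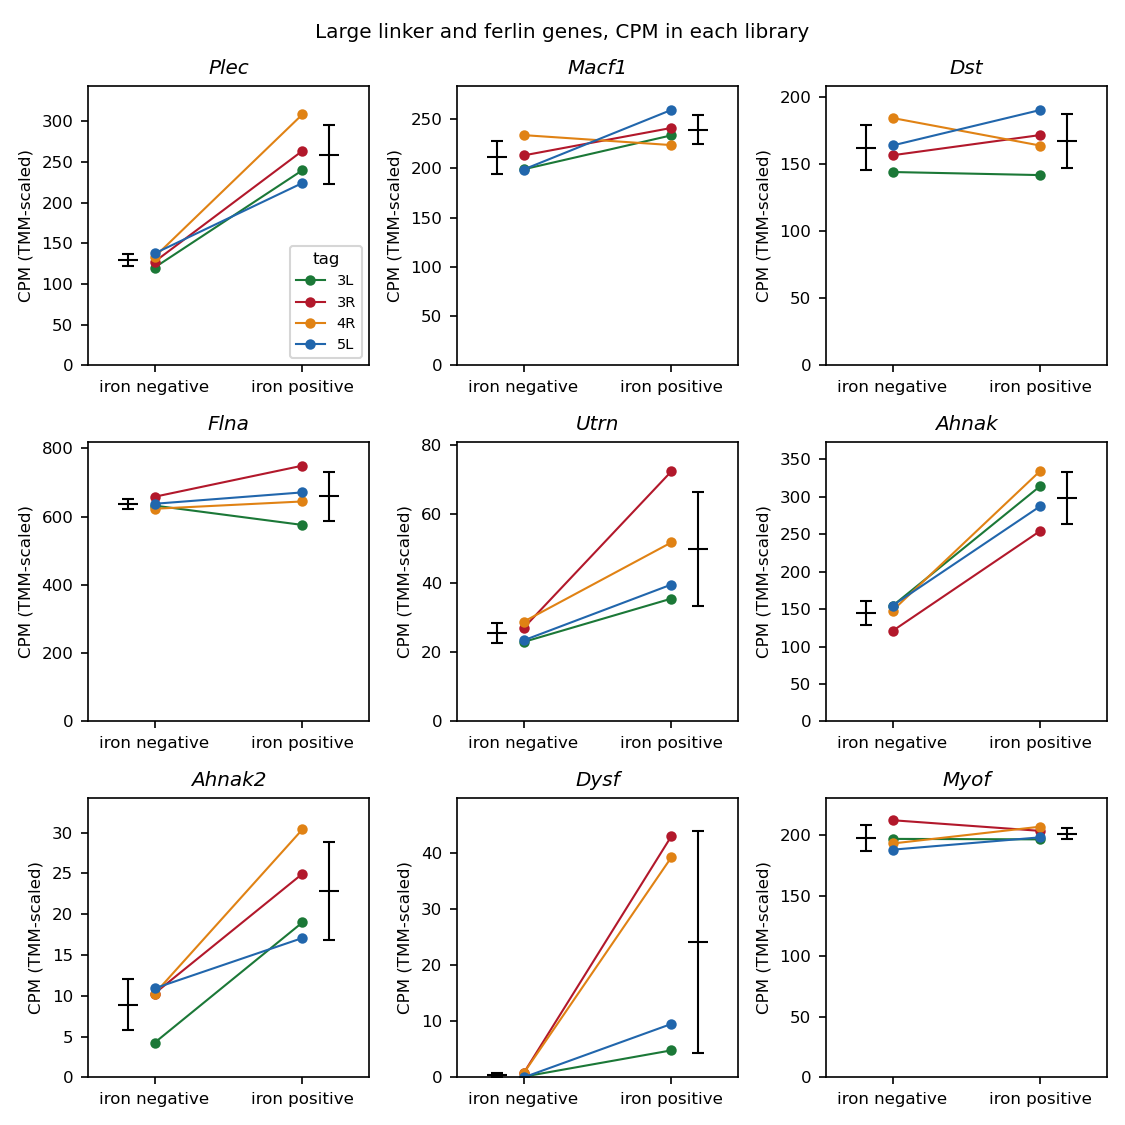
CPM of each gene in the iron negative and iron positive libraries, with lines joining libraries of the same tag and the mean ± SD of 4 libraries beside each fraction. Plec, Utrn, Ahnak, Ahnak2 and Dysf do not overlap between fractions, and Macf1, Dst, Flna and Myof do. Lack of overlap is not a call: Ilk and Dctn1, which were not called, also lacked it.

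The pair of ferlins differed most from each other. Dysf (ENSMUSG00000033788, chr6:84008590-84211060, plus strand) had 3, 15, 16 and 0 estimated counts in iron negative libraries 3L, 3R, 4R and 5L, and 97, 855, 902 and 217 in the iron positive ones. As CPM these were 0.133, 0.731, 0.716 and 0 against 4.83, 43.1, 39.3 and 9.55. The fractions did not overlap, and within the iron positive fraction 3R and 4R lay well above 3L and 5L, with the highest 8.91 times the lowest. For iron negative 5L, a count of 0 allows a level of up to 3 counts, or 0.130 CPM, for counting error alone. The fit gave a log2 fold change of 5.94 ± 1.0 (SE), which rests on 34.0 counts in all iron negative libraries together against 2071 in the iron positive ones.

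Myoferlin, the close paralog of dysferlin, which is found in many cell types, stayed in 1 range across the fractions. Myof (ENSMUSG00000048612, chr19:37899036-38043577, minus strand) had 196.8, 212.2, 193.0 and 187.9 CPM in the iron negative libraries and 196.4, 203.4, 206.9 and 198.1 CPM in the iron positive ones. The fractions overlapped, the log2 fold change was 0.03 ± 0.06 (SE), and the highest iron positive library was 1.05 times the lowest. On the length-corrected scale of TPM, which counts transcripts rather than reads, Myof was 38.7, 3.9, 4.3 and 15.2 times Dysf in iron positive 3L, 3R, 4R and 5L. Myoferlin transcripts thus outnumbered dysferlin transcripts in all 8 libraries, including the 4 in which Dysf was highest.

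Promoter windows of the ferlins and of Utrn are shown. Dysf has a pair of annotated starts to which transcripts could be assigned, and Myof is its paralog with overlapping fractions. The Utrn window holds the annotated start of Utrn-201, a model that differed between fractions. Whether transcription starts at that site was not tested. Each runs from 250 bases before to 50 bases after a start site, 5′ to 3′ on the gene's strand, and comes from RefSeq on GRCm38.p6. Capitals mark the GC box, GGGCGG, on either strand, a motif bound by SP-family factors. The windows were matched by symbol, and 8 of the 9 genes had one.
Dysf, start at 84008598 (chr6:84008348-84008647, plus strand): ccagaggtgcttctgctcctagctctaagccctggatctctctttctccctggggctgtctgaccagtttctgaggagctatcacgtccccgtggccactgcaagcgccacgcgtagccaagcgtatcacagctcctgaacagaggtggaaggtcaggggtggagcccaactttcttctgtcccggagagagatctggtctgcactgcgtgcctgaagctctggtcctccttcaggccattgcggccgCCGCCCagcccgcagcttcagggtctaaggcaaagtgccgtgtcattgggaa
Dysf, start at 84019386 (chr6:84019136-84019435, plus strand): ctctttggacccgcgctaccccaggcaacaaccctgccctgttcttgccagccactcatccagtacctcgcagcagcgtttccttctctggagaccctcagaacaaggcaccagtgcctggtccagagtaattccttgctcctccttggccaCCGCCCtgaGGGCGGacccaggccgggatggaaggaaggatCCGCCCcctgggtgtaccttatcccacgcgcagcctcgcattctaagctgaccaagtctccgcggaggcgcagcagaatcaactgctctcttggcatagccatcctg
Myof, start at 38043577 (chr19:38043528-38043827, minus strand): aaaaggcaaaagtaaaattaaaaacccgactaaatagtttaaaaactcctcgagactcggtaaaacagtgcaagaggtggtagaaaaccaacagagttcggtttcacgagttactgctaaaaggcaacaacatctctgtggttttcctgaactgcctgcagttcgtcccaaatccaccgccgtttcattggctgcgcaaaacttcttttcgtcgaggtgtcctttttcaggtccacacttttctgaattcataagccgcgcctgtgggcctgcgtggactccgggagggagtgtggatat
Utrn, start at 12861735 (chr10:12861686-12861985, minus strand): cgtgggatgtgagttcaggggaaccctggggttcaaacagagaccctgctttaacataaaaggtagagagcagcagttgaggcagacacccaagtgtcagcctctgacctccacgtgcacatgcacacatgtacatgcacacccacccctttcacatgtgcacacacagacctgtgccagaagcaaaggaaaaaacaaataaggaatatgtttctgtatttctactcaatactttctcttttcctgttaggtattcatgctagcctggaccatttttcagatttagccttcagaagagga
The GC box occurred 3 times in the Dysf window at 84019386, with first bases 98, 89 and 57 bases before the start (positions -98, -89 and -57), and once in the window at 84008598 (position -2). The Myof and Utrn windows held none, while 35.63% of the 32817 windows in the table held at least 1. Neither TATAAA nor CGGAAG, searched on both strands, occurred in these 4 windows, against 13.62% and 16.85% of all windows. The Dysf windows were 60.0% and 61.0% G or C and the Myof and Utrn windows 46.3% and 46.0%, with a median of 52.67% over all windows. The Utrn window held 2 CpG, against 13 and 14 in the Dysf windows, 15 in the Myof window and a median of 7.0. These are matches of letters and say nothing about binding.

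In the iron positive libraries, nearly all long dysferlin transcripts were assigned to the second of these starts. The 6 long models that start between 84019385 and 84019389 held 100%, 94.1%, 91.0% and 96.9% of the TPM of long Dysf models in iron positive 3L, 3R, 4R and 5L. The 6 models that start between 84008590 and 84008915 held 4.5% ± 3.9 (SD, n = 4). Every iron positive library therefore had the same leading start, which in 3L rests on 91.8 estimated counts. The split between the starts depends on how kallisto divided reads among the models. Dysf-201, a model of 6660 bases with the downstream start, held 29.2%, 49.9%, 50.8% and 55.4% of all Dysf TPM. A 404-base model, Dysf-207, held 0.0%, 13.5%, 14.8% and 35.5%, and such short models weigh more in TPM than in reads. No share was computed for Dysf in the iron negative libraries, which each held fewer than 50 counts.

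Of the 2 long models of Utrn, only Utrn-201 stood apart between the fractions. The models differ at both ends, with 3′ ends at 12382188 (Utrn-201) and 12383380 (Utrn-205). The difference between them therefore cannot be assigned to the start site. Their levels also depend on how kallisto divided reads between them. Utrn-201, whose start lies in the Utrn window shown above, had 1.49, 1.66, 1.51 and 1.15 TPM in the iron negative libraries and 2.52, 6.16, 4.72 and 2.29 TPM in the iron positive ones. The fractions did not overlap, and 3R and 4R were again highest, as for the whole gene. Utrn-205, which starts upstream at 12869365, had 0.695, 1.12, 1.38 and 1.23 TPM against 0.806, 1.31, 0.721 and 1.74 TPM. It overlapped between the fractions, with means of 1.11 ± 0.29 and 1.14 ± 0.47 TPM (SD, n = 4 each). Of the TPM of these 2 long models, Utrn-201 held 57.1% ± 8.8 in the iron negative and 75.5% ± 13.2 in the iron positive fraction (SD, n = 4 each), with overlap. Within each tag this share was higher in the iron positive library (68.2% and 75.8% in 3L, 59.7% and 82.5% in 3R, 52.1% and 86.8% in 4R, 48.4% and 56.9% in 5L). As a share of the TPM of all Utrn models, the difference of Utrn-201 was smaller. Utrn-201 held 52.6%, 51.6%, 38.9% and 40.8% in the iron negative and 56.8%, 60.3%, 56.8% and 33.4% in the iron positive libraries. On that scale the fractions overlapped, and tag 5L was lower in the iron positive fraction. By estimated counts in place of TPM, the mean share of Utrn-201 in all Utrn models was 56.5% and 72.6%. Utrn-205 held 34.6% ± 7.8 of the TPM of all Utrn models in the iron negative and 16.2% ± 7.2 in the iron positive fraction (SD, n = 4 each). The fractions overlapped, but its share was lower in the iron positive library of each tag. By counts its mean share was 40.4% and 22.6%.

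Plectin is known for many alternative first exons, which target it to different structures. Long coding models of Plec fell into 9 start sites. The leading model, Plec-206 (14855 bases, start at 76229497), held 70.2%, 60.6%, 55.9% and 67.5% of all Plec TPM in the iron negative libraries and 45.3%, 39.3%, 48.8% and 47.7% in the iron positive ones. Its share was lower in every iron positive library, although its own level was higher: 6.84, 7.24, 6.83 and 8.18 TPM against 9.25, 9.73, 14.5 and 9.63 TPM. By estimated counts in place of TPM its mean share was 67.1% and 47.6%. Plec-201, with the start nearest the 3′ end at 76195710, had 0.484, 1.66, 1.92 and 1.15 TPM in the iron negative and 3.29, 4.63, 6.30 and 3.83 TPM in the iron positive libraries. Its share of the long models was 12.0% ± 5.4 and 20.1% ± 2.4 (SD, n = 4 each), without overlap. Models starting between 76199406 and 76199835 (Plec-202, Plec-217 and Plec-218) had a mean of 0.358 and 2.03 TPM together. Plec transcripts of several starts were thus higher in the iron positive fraction, and Plec-206 made up a smaller part of them. These models share most of their exons, so the shares depend on how kallisto divided reads among them.

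**Figure D3:**
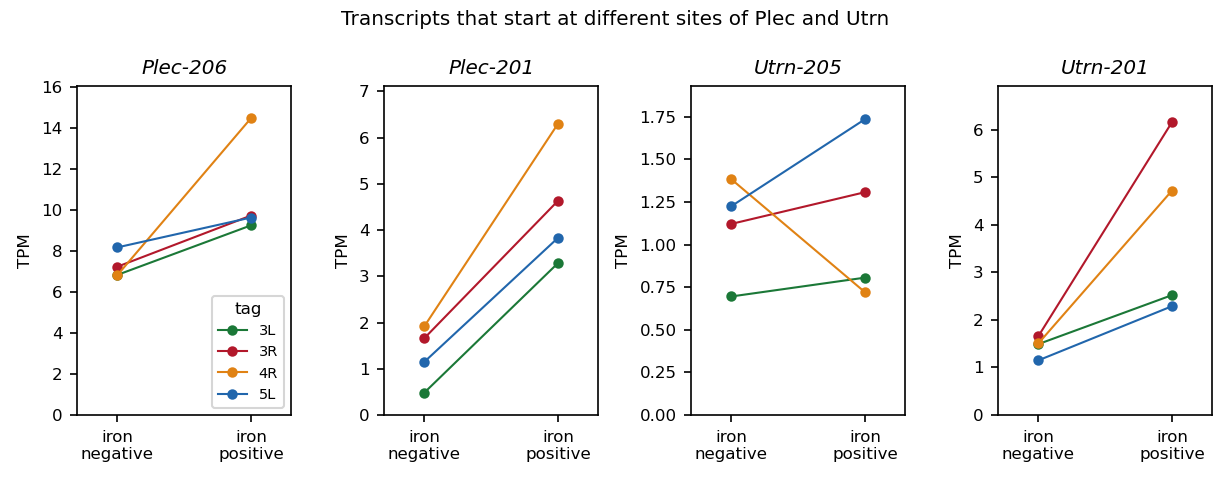
TPM of single transcript models of Plec and Utrn that start at different sites, by fraction, with lines joining libraries of the same tag. The Utrn models also differ at their 3′ ends. Utrn-205 overlaps between fractions (0.695 to 1.38 against 0.721 to 1.74 TPM), and Utrn-201, Plec-201 and Plec-206 do not.

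In the other genes the shares moved less. Flna-202 held 57.0%, 52.4%, 56.3% and 54.1% of Flna TPM in the iron negative libraries and 50.4%, 36.9%, 34.1% and 52.4% in the iron positive ones. The fractions met at 52.4%, the share was lower in the iron positive library of each tag, and iron positive 3R and 4R were lowest. By counts the means of Flna-202 were 71.4% and 65.6%. Flna-203, which starts upstream at 74249820, held 13.3% of the long models in the iron negative and 18.1% in the iron positive fraction, with overlap. In Dst, the model with the most upstream start, Dst-211, held 8.1%, 7.8%, 10.5% and 5.6% of the long models in the iron negative libraries and 9.3%, 24.6%, 20.5% and 9.9% in the iron positive ones, again highest in 3R and 4R, with the other 2 inside the iron negative range. Within each tag the share of Dst-211 was higher in the iron positive library. Dst-215 held 56.7% and 55.7% of the long models in the iron negative and iron positive fractions. Of the TPM of all Dst models it held only 21.1% and 17.9%. The shorter Dst-204 (5729 bases) held more, at 38.9% and 42.0%, and both overlapped between fractions. In Macf1, the shares of the leading long models Macf1-215 and Macf1-209 were 43.4% and 38.2% in the iron negative and 46.3% and 37.3% in the iron positive fraction. Ahnak-202, the 18100-base model that codes for the giant protein, held 97.9% and 97.6% of Ahnak counts, and the main start of Myof held 95.7% in both fractions.

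Per length, the genes spread over a wide range. In the iron negative fraction the order by TPM was Flna (125.4 ± 8.67), Myof (41.5 ± 2.74), Macf1 (36.8 ± 4.63), Dst (22.0 ± 2.78), Ahnak (14.7 ± 2.58), Plec (11.5 ± 1.18), Utrn (3.19 ± 0.49), Ahnak2 (2.42 ± 0.91) and Dysf (0.240 ± 0.374), each with the SD over 4 libraries. Myof and Macf1, Ahnak and Plec, and Utrn and Ahnak2 overlapped with each other across libraries. In the iron positive fraction Flna led at 159.0 ± 30.7 TPM, followed by Macf1 (45.0 ± 5.46), Myof (44.9 ± 3.70), Ahnak (33.5 ± 7.89), Dst (25.1 ± 3.8) and Plec (23.8 ± 4.47). Neighbours from Macf1 to Plec overlapped there. Utrn (7.45 ± 2.43), Dysf (6.83 ± 5.67) and Ahnak2 (6.12 ± 1.85) came last and overlapped as well. Dysf, the least abundant of the 9 in the iron negative fraction, thus lay in the same range as Utrn and Ahnak2 in the iron positive one.

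The iron positive libraries differed among themselves in cells of the vessel wall and stroma. Endothelial markers summed to 214.2, 1853, 1113 and 278.8 CPM in iron positive 3L, 3R, 4R and 5L, against 36.6 to 82.1 CPM in the iron negative libraries. Pericyte and smooth muscle markers summed to 65.4, 512.2, 382.9 and 130.2 CPM (27.3 to 54.4 in iron negative), and fibroblast and fibrosarcoma markers to 534.6, 5035, 1847 and 596.1 CPM (143.2 to 430.1). All 3 lists were highest in 3R and 4R, and none of their markers was at 0 in every iron negative library. Skeletal muscle markers summed to 54.4, 67.7, 33.0 and 26.6 CPM, against 8.35 to 11.2 CPM in the iron negative libraries, and were highest in 3R and 3L.

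Dysf and Utrn were highest in 3R and 4R, as were the endothelial, pericyte and fibroblast markers but not the skeletal muscle markers, and the part of these cell types in the differences was not tested. Dysf equalled 2.26%, 2.33%, 3.53% and 3.43% of the endothelial sum in iron positive 3L, 3R, 4R and 5L, while the highest library was 8.91 times the lowest for Dysf and 8.65 times for the endothelial sum. In the iron negative libraries Dysf equalled 0.362%, 0.890%, 1.16% and 0% of that sum. Iron positive 3L, which was lowest in Dysf, was among the 2 highest libraries in skeletal muscle markers. Relative to the iron negative mean, Plec was 1.85, 2.04, 2.38 and 1.73 times as high in iron positive 3L, 3R, 4R and 5L, and Ahnak 2.18, 1.76, 2.32 and 1.99 times. Plec was thus also highest in 4R and 3R, but its highest iron positive library was only 1.38 times its lowest, and Ahnak was lowest in 3R, where the endothelial sum was highest. Ahnak2 was 2.13, 2.80, 3.40 and 1.91 times the iron negative mean, highest in 4R and 3R.

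**Figure D4:**
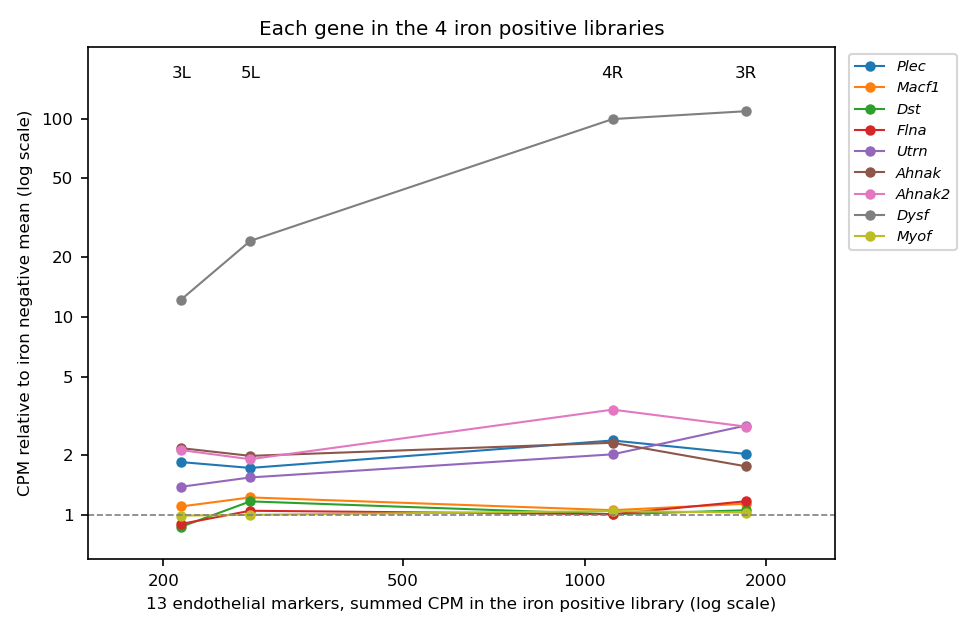
Level of each gene in the 4 iron positive libraries relative to its iron negative mean, against the summed CPM of 13 endothelial markers in the same library (both axes log). Dysf climbs from 12.2 to 109.1 times between 3L and 3R, Plec and Ahnak stay between 1.73 and 2.38 times, and Macf1, Dst, Flna and Myof stay near 1.

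Genes with the most similar profile over the 8 libraries were found by the root mean square distance between centred log2 CPM values, among 9851 genes. For Dysf these were Esam (distance 0.269), Gja4 (0.312) and Adgrf5 (0.318), of which Esam is on the endothelial list. Esam had a mean of 1.23 CPM in the iron negative and 51.4 CPM in the iron positive fraction. For Plec they were Tspan17 (0.048), Gypc (0.094) and Nav1 (0.108), and for Ahnak Tspan17 (0.158), Gadd45a (0.16) and Plec itself (0.17). Plec was the only one of the 9 among the nearest genes of another. Among the 3 genes nearest to Utrn were Itpr1 (0.13) and Tram2 (0.132), and Ahnak2 lay nearest Micall2 (0.328), Spred3 (0.333) and Otud7b (0.334). The nearest genes of the other 4 differed as little, with Xiap, Immp1l and Bsg (0.032 to 0.035) for Myof, Eif2d, Ccdc167 and Gbf1 (0.033 to 0.038) for Flna, Uvssa, Hdhd5 and Cby1 (0.055 to 0.07) for Dst, and Zbtb40, Tbc1d19 and Kmt2d (0.053 to 0.061) for Macf1.

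Other genes with long transcripts give the background for genes of this size. Among 211 tested genes with a mean transcript length over 8 kb, which include 4 of the 9, 30 were called higher (14.22%) and 4 lower (1.9%), with a median log2 fold change of 0.08. Among 2168 genes of 4 to 8 kb, which include the other 5, 293 were higher (13.51%) and 114 lower (5.26%), with a median of 0.03. Among 5333 genes under 2 kb, 326 were higher (6.11%) and 255 lower (4.78%), with a median of -0.02.

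To place the 9 genes among their partners, 6 lists of 110 other genes were examined, of which 88 were tested. In edgeR's test 20 were higher and 0 lower, with a median log2 fold change of 0.33 against -0.01 over all genes, beside 8.49% and 5.21% called of all genes. Unadjusted, 54 of the 88 had a p under 0.05 in either direction, beside 4147 of all 13343 genes. With the tag as a block 37 were higher and 7 lower, beside 12.8% and 9.39% of all genes. DESeq2 called 36 higher and 4 lower, beside 1703 and 1070 of all genes. Those lower with the block included Tln1, Ehd1, Lmnb1, Itga6, Fermt3 and Mapre2, named after their values were seen. Without iron negative 3L, 3R or 4R none of the 88 was called, with 46, 48 and 49 of them at an unadjusted p under 0.05. Over all genes that number was 3556, 3597 and 3704. The number higher was 1 without iron negative 5L, 6 without iron positive 4R, 32 without iron positive 3L and 33 without iron positive 5L. Over all genes it was 26, 399, 1402 and 1487 in the same fits.

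Of 18 other plakins, spectrins, filamins and spectrin-repeat linkers, 3 were higher, and 8 with the block. The spectrin Sptbn1, part of the lattice under the membrane, rose from 54.6 ± 4.84 to 123.8 ± 56.3 CPM (log2 fold change 1.18 ± 0.29 SE, adjusted p = 0.0320, edgeR). Vinculin (Vcl), which links integrin adhesions to actin, rose from 13.1 ± 1.70 to 36.9 ± 21.9 CPM (1.49 ± 0.36, adjusted p = 0.0324). Both were highest in iron positive 3R, at 193.9 CPM for Sptbn1 and 68.0 CPM for Vcl, followed by 4R, as were the vessel markers. Syne3, a nuclear envelope linker of the nesprin family, rose from 19.5 ± 1.04 to 24 ± 1.15 CPM (0.30 ± 0.07, adjusted p = 0.0264), a call lost on the macrophage scale (adjusted p = 0.0549).

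In the list of other ferlins and plasma membrane repair genes, 8 of 23 were higher, and 10 with the block. Capn2, the catalytic chain of m-calpain, rose from 97.4 ± 3.90 to 159.5 ± 29.5 CPM (log2 fold change 0.71 ± 0.12 SE, adjusted p = 0.0173, edgeR). Its iron positive values were 175.4, 138.5, 192.9 and 131.1 CPM in 3L, 3R, 4R and 5L, all above its iron negative values of 92.8 to 102.0 CPM. Anxa2, the annexin that AHNAK binds, stood at 166.0, 177.5, 183.0 and 183.6 CPM in the iron negative libraries and 322.4, 337.8, 438.1 and 238.5 CPM in the iron positive ones (0.91 ± 0.16, adjusted p = 0.0176). It was highest in 4R and lowest in 5L, the same extremes as Plec. Anxa7 rose from 61.6 ± 3.84 to 91.6 ± 13.9 CPM (0.57 ± 0.11, adjusted p = 0.0183). S100a10, the partner of Anxa2 at AHNAK, was named for that role after its value was seen and rose from 98.4 ± 9.89 to 143.1 ± 22.1 CPM (0.54 ± 0.12, adjusted p = 0.0243).

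In all, 3 genes of the dystroglycan complex, to which utrophin belongs, were higher among 11 tested, and 4 with the block. Sntb2, a syntrophin that binds utrophin, rose from 32.6 ± 3.77 to 47.7 ± 7.17 CPM (log2 fold change 0.55 ± 0.13 SE, adjusted p = 0.0273, edgeR). Sarcospan (Sspn) rose from 0.230 ± 0.112 to 1.87 ± 1.59 CPM (3.0 ± 0.65, adjusted p = 0.0238). Sgce, a sarcoglycan found outside muscle, rose from 0.948 ± 0.281 to 5.09 ± 4.76 CPM (2.42 ± 0.66, adjusted p = 0.0452). Sspn and Sgce were highest in 3R (4.18 and 11.8 CPM), followed by 4R, as Utrn and the vessel and stromal markers were.

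Intermediate filament and hemidesmosome genes, the partners of plectin, had 5 of 9 higher, 6 with the block, and a median log2 fold change of 0.78. Desmin (Des), the filament protein of muscle, stood at 0.177, 0.585, 0.448 and 0.0435 CPM in the iron negative libraries and 11.02, 20.5, 12.3 and 5.81 CPM in the iron positive ones (5.30 ± 0.62 SE, adjusted p = 0.0118, edgeR). Synemin (Synm), which assembles with desmin, rose from 0.0674 ± 0.0242 to 2.76 ± 2.23 CPM (5.23 ± 0.72, adjusted p = 0.0172). Nestin (Nes) rose from 2.26 ± 1.0 to 34.8 ± 32.0 CPM (3.95 ± 0.76, adjusted p = 0.0185) and was highest in 3R at 77.7 CPM. Like the endothelial, pericyte and fibroblast sums, these genes stood highest in 3R and next in 4R, whereas the skeletal muscle sum was highest in 3R and 3L, and the part of other cell types in them was not tested.

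Of 15 filamin partners and focal adhesion adaptors, only Itgb3 was called, with 6 higher with the block and 3 on the macrophage scale. Integrin beta 3, whose tail filamin can bind, rose from 2.28 ± 0.729 to 22.3 ± 20.8 CPM (3.29 ± 0.70 SE, adjusted p = 0.0223, edgeR), with 50.8 CPM in 3R and 5.88 CPM in 3L. Of 12 microtubule plus-end and minus-end partners of MACF1 and dystonin, 0 were called by edgeR and by limma voom, 3 were higher and 1 lower with the block, and 2 were higher by DESeq2. Unadjusted, 3 had a p under 0.05 upward and 2 downward, beside 4147 of all 13343 genes in either direction. The most abundant, Mapre1 (EB1), had 177.5 ± 11.7 and 171.4 ± 4.94 CPM (-0.05 ± 0.06, adjusted p = 0.610), and Dctn1 had 172.3 ± 0.848 and 161.0 ± 6.04 CPM (-0.10 ± 0.05, adjusted p = 0.202). On the macrophage scale both turned to 0.16 and 0.11.

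**Figure D5:**
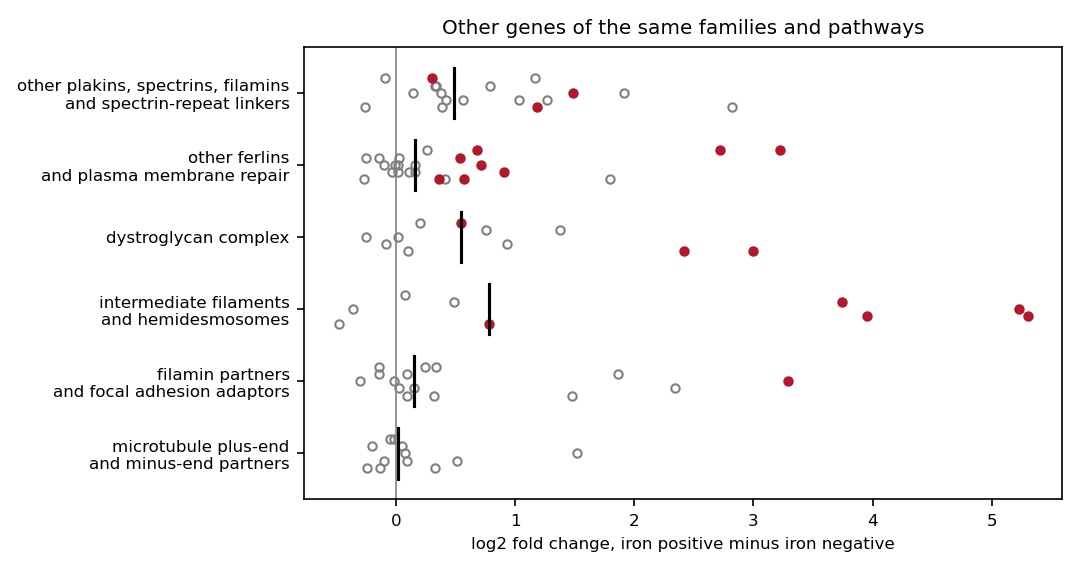
Log2 fold change (iron positive minus iron negative) of each tested gene in the 6 lists of related genes, filled where called by edgeR, with the list median as a vertical bar. Medians run from 0.01 for the microtubule partners to 0.78 for the intermediate filament list, which also holds the largest fold changes.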

How the data were processed

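Each of the 8 libraries has its own deposited table of transcript abundances, made with kallisto 0.46.2 on mm10, per the submitters' processing notes. Which transcript release was used is not given in these sources. Per the file headers, each table gives estimated counts per transcript, which are not normalized, the authors' TPM (scaled by effective length and library), and transcript lengths. No libraries were pooled. The 119414 transcripts were joined by identifier to GENCODE M21 (GRCm38), which matched 116728, and the unmatched 2686 held 0.888% to 0.961% of a library's counts and were left out. Counts were summed over 35975 genes and rounded. The sums use no strand, so overlapping genes cannot be told apart.

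The test was edgeR 4.0.16's quasi-likelihood F-test (legacy estimate, R 4.3.3) on the fraction alone, after filterByExpr and TMM scaling, with Benjamini-Hochberg adjusted p under 0.05 over 13343 genes. Each SE is the coefficient over the square root of F, which is approximate. DESeq2 1.42.0, limma 3.58.1, other scalings, no filter, a replicate block and leaving out each library were tried. The steps were tested on simulated data. The members, the lists, the tests and the rule for named genes were chosen with earlier results of these data known. The rule named the 9 genes, up to 3 called genes with the smallest adjusted p per list (or the 2 most abundant where none was called), transcripts with a mean share of at least 20%, and the 3 nearest profiles that average 5 CPM or more. Of the genes so picked, 1 is not reported here. The grouping of long models (at least 50% of the longest) by start sites within 500 bases was added after the shares were seen. Transcript shares need at least 50 counts of the gene in a library. Intervals and limits for counts of 0 cover counting error only.

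Deviations from the fraction means correlated across genes at 0.53 (3L), 0.521 (3R), 0.27 (4R) and 0.304 (5L) between libraries of the same tag, all over the limit of 0.1 for pairing, and the highest value between different tags was 0.257. The pairing comes from the tags in the labels. No libraries of a fraction agreed within counting noise.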

Additional observations from a re-analysis of the deposited data

Results flagged for a closer look

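Of 45 groups of 4 libraries checked for a single library far from the rest, 2 stood out, and chance alone marks about 1 in 20. Ahnak2 in iron negative library 3L was 4.24 CPM, while the other iron negative libraries lay between 10.25 and 10.91 CPM, so the gap took up 0.901 of the whole range. The share of Utrn-201 in all Utrn TPM was 33.4% in iron positive library 5L, while the other iron positive libraries lay between 56.8% and 60.3%, a gap of 0.87 of the range. The cause of neither was tested.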

How the results depend on the processing

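All 9 genes kept log2 fold changes above 0 under each alternative, except that Myof fell to -0.00, Dst to -0.03 and Flna to -0.02 at their lowest. At their highest, Myof reached 0.23, Dst 0.24 and Macf1 0.38 with macrophage scaling, and Flna reached 0.32 with limma on log2(TPM + 1). How little these genes differed thus depends in part on the scale. The 1133 genes called higher and 695 lower by edgeR became 1703 and 1070 with DESeq2, 189 and 273 with limma voom, 33 and 1 with limma on log2(TPM + 1), 285 and 71 on log2(TPM + 0.1), and 1705 and 1253 with the replicate block. The number lower was 362 with library totals and 14 with macrophage scaling. Of the 9 genes, 5 were called higher in the main fit, 2 with voom, 1 on log2(TPM + 1) and 2 on log2(TPM + 0.1). Of the companion genes, 20 were higher and 0 lower, against 36 and 4 with DESeq2 and 37 and 7 with the replicate block. The number of companion genes higher was 6 with voom, 1 on log2(TPM + 1) and 5 on log2(TPM + 0.1). With 1 library left out, genes higher ranged from 0 to 1487 and genes lower from 0 to 979, the 9 genes higher from 0 to 5, and companion genes higher from 0 to 33 and lower from 0 to 4. The counts of 0 genes and of 0 companion genes higher came from the fits that left out iron negative 3L, iron negative 3R and iron negative 4R, with smallest adjusted p-values of 0.0619, 0.0511 and 0.063 in edgeR. Leaving out iron negative 5L gave 26 higher and 12 lower, and leaving out iron positive 4R gave 399 and 214. The cause of these changes was not tested. The log2 fold change of Dysf, 5.94 in the main fit on 34.0 iron negative counts, ranged from 2.31 on log2(TPM + 1) to 6.42 over the alternatives. The replicate block changed no call among the 9 genes.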

Other observations

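Besides the genes named in the report, 6 companion genes were called higher, and they are named here after their values were seen. Cav1 and Ehd2, which shape caveolae, rose from 14.4 ± 4.35 to 94.6 ± 82.1 CPM and from 7.74 ± 4.12 to 72.2 ± 68.8 CPM (SD, n = 4 each, adjusted p = 0.0257 and 0.0345, edgeR). Both were highest in iron positive 3R, at 208.1 and 162.8 CPM, and next in 4R, as were the vessel marker sums, whose part in this was not tested. Itgb4, the hemidesmosome integrin that plectin binds in epithelia, rose from 0.848 ± 0.375 to 11.4 ± 9.92 CPM (adjusted p = 0.0209), while its partner Itga6 had 263.0 ± 8.07 and 204.9 ± 32.8 CPM (adjusted p = 0.0614, and 0.0374 with the tag as a block). Cd151, a tetraspanin of hemidesmosomes, rose from 34.4 ± 0.799 to 59.0 ± 14.2 CPM (adjusted p = 0.0208). Anxa1 and S100a11, which act together at torn membranes, rose from 176.2 ± 16.7 to 225.6 ± 17.9 CPM and from 83.3 ± 5.29 to 133.6 ± 32.0 CPM (adjusted p = 0.0318 and 0.0299).

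Vim, Tln1 and Itga6 were likewise named after their values were seen. Vim, the main intermediate filament gene of both fractions, had 1347 ± 94.3 CPM in the iron negative and 1891 ± 359.7 CPM in the iron positive fraction (adjusted p = 0.0515 in edgeR, and 0.0397 with the tag as a block). Tln1, which couples integrins to actin, was the most abundant gene of the linker list, with 806.3 ± 7.92 and 673.3 ± 59.7 CPM (adjusted p = 0.0557, and 0.0439 with the block).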
